A study of Mus musculus with 2 samples.

Results

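Dividing nuclei with high Pkhd1 in residual mouse liver tumour were described here. They were chosen by counts of unique molecular identifiers (UMIs, each 1 captured RNA molecule) in single-nucleus RNA data. A nucleus was taken when its barcode held at least 3000 UMIs, at most 5% of them mitochondrial, at least 3 UMIs of Pkhd1, at most 2 UMIs of Ptprc, Stab2 and Reln together, and at least 6 UMIs of Top2a, Tpx2, Mki67, Anln, Cenpe and Cenpf together. Of 17169 barcodes, 3731 passed the gate on depth, mitochondrial share, Pkhd1 and the 3 excluded genes. Of these, 137 met the threshold on the 6 cycle genes and form the dividing group. They were set against the 3453 nuclei of the same gate with 0 or 1 UMI of the cycle genes, called comparison nuclei below. Another 141 nuclei with 2 to 5 such UMIs are called intermediate.

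The nuclei came from frozen mouse liver with hepatocellular carcinoma, and the series describes a microdissected area of minimal residual disease. The labels give 2 samples of 1 group and name no strain, age, genotype or treatment. The deposited counts form 1 matrix whose barcodes name no sample, so all values are of 1 pooled sample without replicates, and no p-value was computed. All 17169 barcodes were distinct. The 137 dividing nuclei held 1835498 UMIs, with 3298 to 45697 a nucleus and a median of 11382. The 3453 comparison nuclei held 33128903 UMIs, with a median of 6979. Intervals in the text cover counting error only, not differences between animals.

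A cell that divides first licenses replication origins, copies its DNA in S phase, and then condenses and separates the chromosomes in G2 and mitosis. E2F factors drive the S-phase genes, and the complexes built on MuvB with B-Myb and FoxM1 drive most genes of G2 and mitosis. Pkhd1 encodes fibrocystin, a protein of the primary cilium that the bile duct epithelium makes in the normal liver. Hepatocytes in the adult liver rarely divide, so cycle genes mark few nuclei there.

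The upstream bases of 5 cycle genes show the motifs that were counted over all promoters. Each line gives the 150 bases before the RefSeq start (GRCm38.p6), read 5′ to 3′ along the gene. Capitals mark matches on either strand. A cell cycle genes homology region (CHR) was searched as TTTGAA. The variant TTCGAA also counted as CHR. A CCAAT box, the site bound by NF-Y, was searched by the letters of its name. An E2F site was searched as TTTGGCGC, TTTCCCGC, TTTGGCGG, TTTCGCGC, TTCCCGCC or TTGGCGCC. Cdk1, Cdc20 and Prc1 act in G2 and mitosis and hold CHR and CCAAT letters, with 1 E2F match in Cdk1, and Mcm6 and Clspn act in S phase and hold E2F and CCAAT letters. The 5 genes are examples picked from a larger set. Several others of that set that act in G2 and mitosis, such as Bub1, Plk1 and Ccnb1, hold no CHR letters in their 150 bases, whereas Iqgap3 does. The windows are chr10:69352913-69353062 (minus strand) for Cdk1, chr4:118437344-118437493 (minus) for Cdc20, chr7:80294326-80294475 (plus) for Prc1, chr1:128359706-128359855 (minus) for Mcm6 and chr4:126556830-126556979 (plus) for Clspn.
Cdk1: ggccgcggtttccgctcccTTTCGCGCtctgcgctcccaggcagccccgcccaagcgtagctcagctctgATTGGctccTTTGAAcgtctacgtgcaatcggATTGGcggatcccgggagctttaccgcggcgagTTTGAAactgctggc
Cdc20: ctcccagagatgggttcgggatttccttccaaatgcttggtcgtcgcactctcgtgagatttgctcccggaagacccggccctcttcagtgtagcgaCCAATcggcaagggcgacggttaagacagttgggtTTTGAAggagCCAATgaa
Prc1: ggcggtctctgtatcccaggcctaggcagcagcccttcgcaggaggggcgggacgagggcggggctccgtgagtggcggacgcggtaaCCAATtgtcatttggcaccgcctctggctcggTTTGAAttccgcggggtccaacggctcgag
Mcm6: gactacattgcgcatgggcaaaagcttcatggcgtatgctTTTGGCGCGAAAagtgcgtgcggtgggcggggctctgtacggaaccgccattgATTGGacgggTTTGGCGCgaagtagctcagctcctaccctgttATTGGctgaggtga
Clspn: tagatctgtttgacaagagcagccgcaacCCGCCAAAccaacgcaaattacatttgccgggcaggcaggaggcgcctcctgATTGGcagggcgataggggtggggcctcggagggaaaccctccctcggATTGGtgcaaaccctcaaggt

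Over windows of 300 bases, from 250 before to 50 after each start, the CHR letters were in 27 of 36 windows of the G2 and mitosis list (75%). They were in 3 of 27 windows of the S-phase list (11.1%) and in 19.2% of all promoters. For the E2F letters the order was turned round, with 15 of 27 S-phase windows (55.6%), 3 of 36 G2 and mitosis windows (8.33%) and 4.50% of all promoters. Over all compared genes the E2F letters were in 8.26% of windows, close to the share of the G2 and mitosis list. CCAAT letters were in 75% of the G2 and mitosis windows, in 74.1% of the S-phase windows and in 37.4% of all promoters. RefSeq windows were matched by symbol for 31 of 36 and 25 of 30 compared genes of the lists, and some genes had more than 1 window. In Mcm6, 2 E2F matches overlap in the first run of capitals. Among the 213 genes at least 8-fold higher in dividing nuclei (2.17% of 9837 compared), of which 172 matched, 47.1% of windows held CHR letters, against 14.5% over all compared genes. A match describes letters and not binding.

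The 6 genes of the gate give a description of the choice and no finding. Top2a, the topoisomerase that untangles replicated DNA, had 807 UMIs per 1000000 (CPM) in the dividing nuclei, 46.4 in the intermediate and 2.81 in the comparison nuclei, and was seen in 133 of 137 dividing nuclei. Tpx2, a spindle assembly factor, had 394 CPM against 3.41. Mki67, which coats mitotic chromosomes, had 378 CPM against 2.11. Cenpf, a kinetochore protein, was seen in the fewest dividing nuclei, 62 of 137, at 103 CPM. Summed UMIs of the 6 genes ran from 6 to 123 a dividing nucleus, with a median of 23, and 28 nuclei had 6 to 9. Just outside the threshold were 19 nuclei with 4 UMIs and 12 with 5. Just inside it were 8 with 6 and 4 with 7. Nuclei with 4 UMIs had a median of 34 UMIs of the S-phase list and 8 of the G2 and mitosis list, and those with 5 had 9.5 and 3. Nuclei with 6 had medians of 34.5 and 11, and those with 7 had 16.5 and 20.

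**Figure D1:**
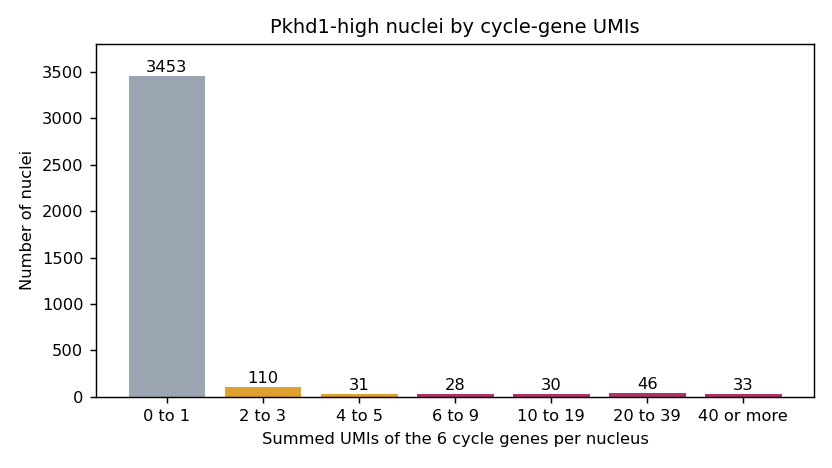
Number of gated Pkhd1-high nuclei (vertical axis) by their summed UMIs of the 6 cycle genes (horizontal axis), with grey for comparison, orange for intermediate and purple for dividing nuclei. Most nuclei, 3453 of 3731, held 0 or 1 UMI, and the dividing classes held 28, 30, 46 and 33 nuclei.

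Pkhd1 itself had 3 to 138 UMIs a dividing nucleus, with a median of 18. Of the 137 nuclei, 93 had at least 10 Pkhd1 UMIs and 44 had 3 to 9. Free RNA, the RNA that uncalled droplets also hold, had 304 CPM of Pkhd1, and 5 of 137 dividing and 385 of 3453 comparison nuclei lay below that level. Summed over the nuclei, Pkhd1 was at 1833 CPM in the dividing and 2232 CPM in the comparison nuclei. The RNA of Ptprc, Stab2 and Reln, which mark leukocytes and liver endothelium and mesenchyme, was capped by the gate and had 4.90, 12.5 and 3.27 CPM in dividing nuclei. That these are tumour nuclei rests on the labelled tissue and on Pkhd1, since no value here tells them apart from other Pkhd1-positive nuclei by mutation.

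The dividing nuclei were 3.67% of the gated nuclei (exact 95% interval 3.09 to 4.33). Among the 3733 barcodes of the same depth and mitochondrial limit with 0 to 2 Pkhd1 UMIs, whatever their Ptprc, Stab2 and Reln, 0.991% (0.699 to 1.36) reached 6 cycle UMIs. Median depth was 7239 and 6015 UMIs. With every barcode thinned to 3000 UMIs, 4.29% of gated nuclei and 1.96% of the barcodes low in Pkhd1 kept at least 2 cycle UMIs. The thinned shares use a lower threshold than the full counts, and both were higher in the gated nuclei. Of all 200 barcodes with at least 6 cycle UMIs, 137 were in the gate, 26 had at least 3 Pkhd1 UMIs but exceeded the limit on Ptprc, Stab2 and Reln, 24 had 1 or 2 Pkhd1 UMIs and 13 had none. Those 26 were 5.86% (3.86 to 8.46) of 444 barcodes over that limit, whose median depth was 15951 UMIs. After thinning, 4.28% of the 444 kept at least 2 cycle UMIs, close to the 4.29% of the gate. The higher share was thus not particular to the gated nuclei. Within the gate, the share was 3.47% at 3 to 9 Pkhd1 UMIs and 3.78% at 10 or more, with overlapping intervals.

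The share also differed with other genes of these tumour nuclei. Among 1087 gated nuclei with at least 3 UMIs of Kcnj16 (an inward rectifier potassium channel) and Slc8a3 (a sodium-calcium exchanger) together, 58 were dividing, 5.34% (4.08 to 6.84). Among 154 with at least 3 UMIs of Zfp804a and Hmga2 together, 13 were dividing, 8.44% (4.57 to 14). Among 2499 with neither it was 68, 2.72% (2.12 to 3.44). Median depths were 8686, 11019 and 6351 UMIs, and after thinning the shares with at least 2 cycle UMIs were 5.80%, 9.09% and 3.40%, in the same order, and 9 nuclei were in both of the first groups. Before and after thinning, the intervals of the first and the second group did not overlap that of the group with neither. The intervals of the Kcnj16 and the Zfp804a groups overlapped each other.

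Gene levels were compared as the ratio of summed CPM, for 9837 genes with enough counts to expect 20 UMIs in the dividing nuclei, leaving out the gate genes and mitochondrial genes. Of these, 757 (7.7%) were at least 2-fold higher in dividing nuclei and 705 (7.17%) at least 2-fold lower, and the median log2 ratio was 0.04. The log2 ratios were taken after adding 1 CPM to both levels, and folds without it. Since the groups were split by 6 cycle genes, the ratios of other cycle genes describe what goes with those 6 genes in the same nuclei.

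Genes of DNA replication were higher as groups. Of the 26 compared genes of the replication fork and polymerases, 26 were at least 2-fold higher, with a median log2 ratio of 2.70. Exo1, a nuclease, had 74.6 CPM in dividing and 1.33 in comparison nuclei, and Pole, the leading-strand polymerase, 100 against 3.29. The histone chaperone Asf1b had 52.8 CPM against 1.36. Of 20 compared genes of origin licensing and the helicase, 18 were at least 2-fold higher and none lower, with a median of 2.81. Ticrr, which starts origin firing, had 63.2 CPM against 0.483, and the origin kinase Cdc7 53.4 against 1.24. Mcm6, a helicase subunit, had 102 CPM against 5.74, while Mcm9 and Orc2 stayed under 2-fold at 1.66 and 1.64.

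Nucleotide synthesis was split. Of 20 compared genes, 8 were at least 2-fold higher and 12 lay between. Rrm2 (91.5 against 2.29 CPM) and Rrm1 (95.3 against 12.8), the subunits of ribonucleotide reductase, and the thymidylate genes Tk1 (79.0 against 5.80) and Tyms (123 against 12.1) were among the higher ones. Shmt1, Shmt2, Mthfd1 and Adsl, which serve one-carbon and purine synthesis, had folds of 0.649, 0.898, 0.920 and 1.02. The deoxynucleotide genes were thus far apart from the one-carbon and purine genes at the other end of the list.

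Repair genes that act at forks held the largest single ratio of the lists. Neil3, a DNA glycosylase that acts on replication-blocking crosslinks, had 269 CPM in dividing and 0.453 in comparison nuclei, 594-fold higher (357 to 1070.2). A Neil3 UMI was seen in 121 of 137 dividing nuclei and 14 of 3453 comparison nuclei. Thinned to 3000 UMIs, the shares were 59.1% and 0.261%, and unthinned they were 88.3% and 0.405%. Per nucleus, Neil3 ran from 0 to 1317 CPM with a median of 267 in dividing nuclei, and from 0 to 294 CPM with a median of 0 in comparison nuclei. The ranges overlapped, and the lower quartile of the dividing nuclei, 122 CPM, lay above the upper quartile of the comparison nuclei, which was 0. Of 32 compared genes of recombination and fork repair, 27 were at least 2-fold higher, with a median log2 ratio of 3.80. Parpbp, Bard1 and Clspn, the fork checkpoint mediator printed above, had 202, 196 and 108 CPM against 1.87, 2.29 and 2.08. Rad51b, Atr, Fancl and Fancc were under 2-fold, at 1.32, 1.39, 1.44 and 1.76.

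Genes of chromosome segregation had the highest list medians. Of 39 compared kinetochore and centromere genes, 38 were at least 2-fold higher, with a median log2 ratio of 4.66. Ska1, which couples kinetochores to microtubules, had 114 CPM against 0.302, and Knl1, the scaffold of the spindle checkpoint, 333 against 2.90. The checkpoint kinases Ttk and Bub1 had 97.0 and 104 CPM against 0.332 and 0.453. Zwint alone stayed under 2-fold, at 1.62. Of 27 spindle motor and microtubule genes, 26 were at least 2-fold higher, with a median of 5.01, led by Kif4 (223 against 1.36 CPM), a motor on chromosome arms, then by Hmmr, Kif15 and Ckap2l. Numa1 was the exception, at 1.5-fold.

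Of 12 compared cytokinesis genes, 12 were at least 2-fold higher. Their median log2 ratio of 5.69 was the highest of the lists, with the same limit from the gate. Kif14, a midbody motor, had 129 CPM against 0.332, Iqgap3 122 against 0.362, and Kif23, a centralspindlin motor, 204 against 1.45. Diaph3, the actin nucleator, had 427 CPM against 4.53 and was seen in 124 of 137 dividing nuclei. Prc1, which bundles the central spindle and whose upstream bases are printed above, had 272 CPM against 2.96. The list named for cytokinesis contains Prc1 and Kif14, which also act in anaphase.

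Condensin and cohesin genes were uneven, with 12 of 21 at least 2-fold higher and a median of 1.57. Esco2, the acetyltransferase that sets cohesion in S phase, had 241 CPM against 2.05, the condensin subunit Ncapg 89.9 against 0.664 and separase, Espl1, 68.1 against 0.483. Stag2 and Nipbl, a cohesin subunit and the cohesin loader, had folds of 0.973 and 1.10. Of 13 centriole genes 10 were at least 2-fold higher, with Stil at 102 CPM against 2.96 and the kinase Plk4 at 68.1 against 4.80. Of 25 genes of replicating chromatin and DNA methylation 18 were, with Atad2 at 597 CPM against 21.9 and the maintenance methylation factor Uhrf1 at 63.7 against 2.63. The de novo methyltransferases Dnmt3a and Dnmt3b had folds of 1.06 and 1.01.

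**Figure D2:**
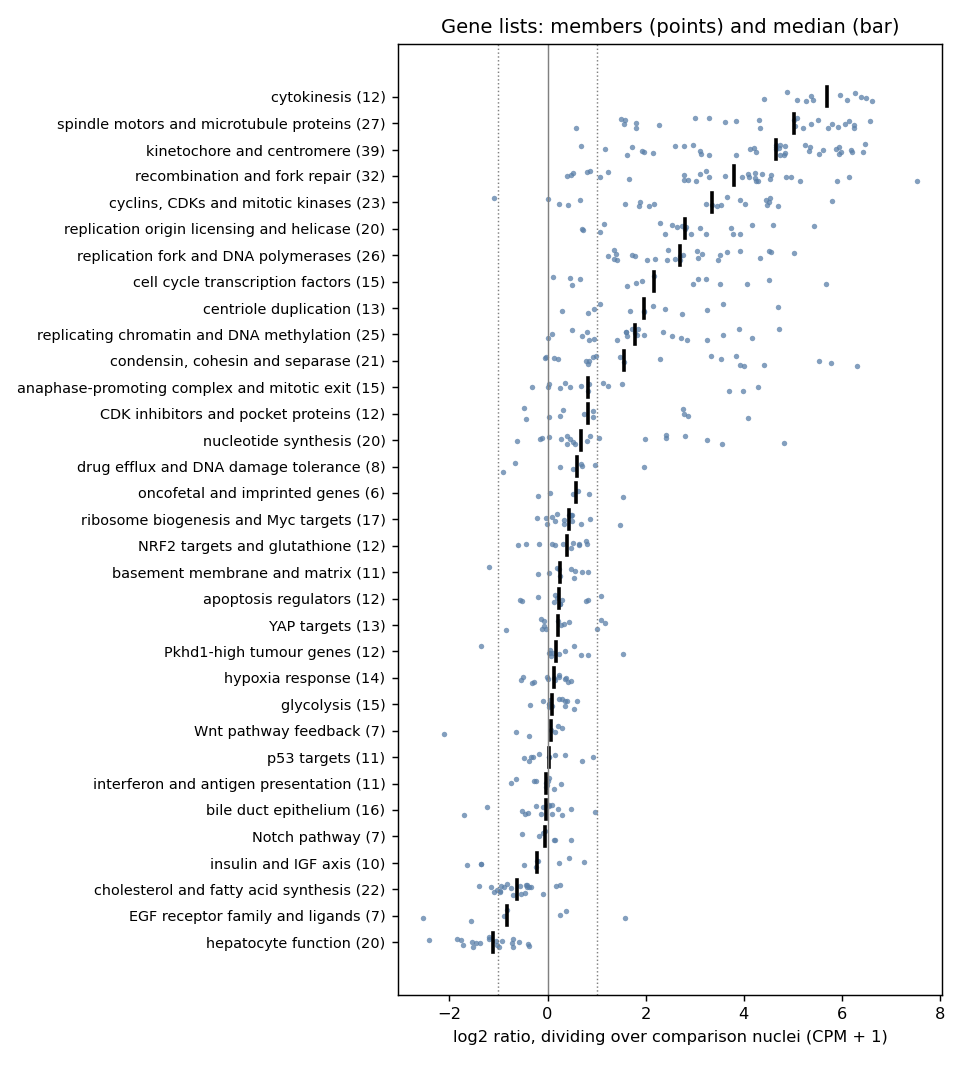
Log2 ratio of each compared gene (points, dividing over comparison nuclei, after adding 1 CPM) by list, with the number of compared genes in brackets, the list median as a black bar and 2-fold as dotted lines. The medians run from 5.69 for cytokinesis to -1.11 for hepatocyte function.

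Cyclins and kinases were mostly higher, with 1 exception. Of 23 compared genes, 18 were at least 2-fold higher and 1, Ccnd3, at least 2-fold lower, with a median log2 ratio of 3.34. The mitotic kinase Cdk1 had 69.7 CPM against 1.72, Aurka 62.1 against 1.75, cyclin B1 (Ccnb1) 32.7 against 0.513 and the Cdk1 phosphatase Cdc25c 25.1 against 0.121. Melk had 75.2 CPM against 0.362. Cdk6, Cdk4 and Ccnd1, which act before S phase, had folds of 1.18, 1.60 and 1.37.

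Ccnd3, cyclin D3, had 1904 CPM in dividing and 4049 CPM in comparison nuclei, 2.13-fold lower (2.06 to 2.20). Among nuclei with at least 10 Pkhd1 UMIs it was 1989 against 5368 CPM, 2.70-fold lower. Per nucleus, Ccnd3 ran from 0 to 11328 CPM in dividing nuclei, with a median of 1308 and quartiles of 679 and 2247, and the comparison nuclei had a median of 4441 and quartiles of 1923 and 7122. The ranges overlapped, and the upper quartile of the dividing nuclei lay below the median of the comparison nuclei. A Ccnd3 UMI was found in 136 of 137 dividing nuclei. Ccnd3 lies on chromosome 17, from 47505051 to 47599691 (mm10), on the plus strand, and its 3′ end overlaps Bysl on the other strand.

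Of 15 compared cell cycle transcription factors, 11 were at least 2-fold higher, with a median of 2.17. E2f7, a repressor of E2F targets in late S phase, had 104 CPM against 1.06, Foxm1 38.7 against 0.724, Mybl2 (B-Myb) 92.1 against 4.59 and E2f1 62.7 against 4.59. E2f4, Lin52 and Tfdp2, which also belong to complexes of resting cells, had folds of 1.09, 1.37 and 1.42. Of 15 compared genes of the anaphase-promoting complex and mitotic exit, 6 were higher: Ube2c (41.4 against 1.18 CPM), the activator Cdc20 (22.9 against 0.513) and the inhibitor Fbxo5 (61.6 against 3.80) led, while core subunits such as Anapc4 and Anapc10 had folds of 1.19 and 1.03.

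Of 12 compared CDK inhibitors and pocket proteins, 4 were at least 2-fold higher. They were Rbl1 (p107, 261 against 14.3 CPM), Cdkn2a (26.2 against 2.75), Cdkn2c (34.9 against 4.20) and Cdkn3 (28.9 against 3.38). Cdkn1a (p21) had 49.6 CPM against 25.5, a fold of 1.94, and the pocket protein Rbl2 (p130) 35.4 against 48.5, a fold of 0.731. Of 11 compared p53 targets none was 2-fold higher or lower, and their median log2 ratio was 0.02.

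Outside all lists, Lockd had the largest log2 ratio among the named genes. It is a long noncoding RNA next to Cdkn1b on chromosome 6, from 134929092 to 134956798 (mm10), and overlaps the antisense gene Gm44238. Lockd had 331 CPM in dividing, 5.15 in intermediate and 1.72 in comparison nuclei, 193-fold higher (147 to 257). It was seen in 111 of 137 dividing and 54 of 3453 comparison nuclei, or 51.8% and 0.840% after thinning to 3000 UMIs. Dividing nuclei ran from 0 to 1272 CPM of Lockd, with a median of 303.

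Efcab11 had 160 CPM against 2.14, Depdc1b 71.4 against 0.423, Prr11 73.5 against 0.483 and the nuclease gene Ankle1 54.5 against 0.241. Troap, a spindle-associated protein, had 47.4 CPM against 0.151, Shcbp1 57.8 against 0.785, the kinetochore gene Knstrn 71.9 against 1.36 and Nsl1, of the Mis12 complex, 30 against 0.362. Cip2a, an inhibitor of the phosphatase PP2A, had 77.9 CPM against 2.60. The ubiquitin ligase gene Neurl1b (37.6 against 0.664) and the noncoding transcript Eldr (38.7 against 0.392) completed the 12 named ones. Efcab11, Troap, Knstrn and Nsl1 overlap annotated antisense genes, whose reads may not be told apart from theirs.

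Hepatocyte genes were lower as a group. Of 20 compared genes of hepatocyte function, 12 were at least 2-fold lower and none higher, with a median log2 ratio of -1.11. Cyp7b1, an oxysterol hydroxylase of bile acid synthesis, was 5.34-fold lower (4.70 to 6.08), Cps1, of the urea cycle, 3.58-fold (3.32 to 3.87), the nuclear receptor Nr1i3 3.50-fold (2.53 to 4.98) and the bile salt pump Abcb11 3.34-fold (2.78 to 4.05). Alb, albumin, had 2247 CPM against 3639, 1.62-fold lower. The comparison group was mixed in these genes. Among nuclei with at least 10 Pkhd1 UMIs, where 592 genes (6.72% of 8806) were at least 2-fold higher and 286 (3.25%) lower, the list median was -0.71. There, Cps1 was 209 against 463 CPM (2.22-fold lower), Cyp7b1 61.1 against 294 (4.82-fold) and Abcb11 37.2 against 74.9 (2.01-fold).

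Free RNA was rich in the same genes, with 25622 CPM of Alb and 1272 of Cps1. By haemoglobin RNA, which free RNA also holds, 10.8% of the UMIs of dividing and 12.8% of those of comparison nuclei would be free RNA. After this share was subtracted, the hepatocyte list median was -2.08. All 137 dividing nuclei had at least 10 UMIs of the 8 hepatocyte markers, with 11 to 383 and a median of 42. The comparison nuclei had a median of 43, at a median depth of 6979 UMIs against 11382 in the dividing nuclei. Summed, the 8 markers had 4394 CPM in dividing nuclei, 8293 in comparison nuclei and 41197 in free RNA. Such a count therefore does not tell RNA of the nucleus from free RNA, and the free share of each nucleus was not tested.

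Lipid and growth factor genes were lower in part. Of 22 compared genes of cholesterol and fatty acid synthesis, 5 were at least 2-fold lower, with a median of -0.63. They included Thrsp (28.3 against 76.6 CPM), Idi1 (23.4 against 53.6) and Elovl6 (64.3 against 132). With at least 10 Pkhd1 UMIs that median was -0.18, and it was 0.27 among the few nuclei with Zfp804a and Hmga2. Of 10 compared genes of the insulin and IGF axis, 3 were lower: Irs1, an adaptor of the insulin receptor, 3.28-fold (2.20 to 5.14), Igfbp4 2.59-fold and Igf1 2.57-fold.

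In the EGF receptor family, 2 of 7 compared genes were at least 2-fold lower and 1 higher. The receptor Erbb4 had 52.3 CPM in dividing and 309 in comparison nuclei, 5.90-fold lower (4.83 to 7.29). With at least 10 Pkhd1 UMIs it was 67.8 against 506 CPM, 7.47-fold lower. Erbb4 was seen in 22 of 137 dividing nuclei (16.1%) and 974 of 3453 comparison nuclei (28.2%), or 8.76% and 23.3% after thinning, and the median nucleus of both groups had 0. Egfr had 1176 CPM against 3483 and was 2.96-fold lower (2.84 to 3.09), but 1.88-fold lower with at least 10 Pkhd1 UMIs. The ligand Areg had 25.6 CPM against 7.85, 3.26-fold higher (2.34 to 4.46), in 20 dividing nuclei.

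The lowest genes outside the lists included Slc1a2, Tmem45a, Gna14, Cyp2c38, Rassf9, Slco1a1, Adgrb3, Csmd1, Tox and Veph1. Slc1a2, a glutamate transporter, had 10.4 CPM against 91.2, 8.81-fold lower (5.63 to 14.6). A Slc1a2 UMI was seen in 16 of 137 dividing nuclei and in 310 of 3453 comparison nuclei, which held all 3020 UMIs of their group. The share of nuclei with a UMI was thus not lower in the dividing nuclei. These shares were not thinned, and median depth was 11382 UMIs in dividing and 6979 in comparison nuclei. Free RNA had 96.6 CPM of Slc1a2, and its part in these levels was not tested. Slco1a1, a hepatocyte organic anion transporter, had 21.8 CPM against 128, and Tmem45a 5.45 against 43.0. Few UMIs lay behind several of these, and 80% of the 10 UMIs of Tmem45a in dividing nuclei came from 1 nucleus. With at least 10 Pkhd1 UMIs the difference was larger for some, with Tmem45a 10.6-fold, Rassf9 8.36-fold and Csmd1 7.81-fold lower. It was smaller for others, with Slc1a2 6.34-fold, Adgrb3 4.61-fold, Cyp2c38 4.51-fold, Slco1a1 4.11-fold and Tox 3.56-fold lower.

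Several other lists had small medians, whose sign changed with the setting except for ribosome biogenesis and for drug efflux and damage tolerance. Glycolysis had a median log2 ratio of 0.10 and hypoxia response one of 0.14, and -0.13 and -0.21 with at least 10 Pkhd1 UMIs, and none of the 15 and 14 compared genes was past 2-fold. Notch had -0.06 with none of 7 past 2-fold, bile duct epithelium -0.03 with 2 of 16 lower (Cftr and Onecut1), and the Wnt feedback list 0.06 with 1 of 7 lower, Rnf43 at 12 against 54.9 CPM. Of 13 YAP targets 3 were at least 2-fold higher: Ankrd1 (397 against 176 CPM), Fstl1 and Axl. Of 17 genes of ribosome biogenesis, whose median was 0.43, 1 was at least 2-fold higher, Nop56 (68.6 against 24.0). Fn1, fibronectin, was the 1 of 11 matrix genes past 2-fold, at 251 CPM against 573. The translesion polymerase Polh (74.6 against 18.2) was the 1 of 8 in the list of drug efflux and damage tolerance, whose median was 0.59.

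Of the 12 genes known from these data to mark Pkhd1-high nuclei, 10 lay within 2-fold and the median log2 ratio was 0.17. Ppargc1a, a coactivator of mitochondrial genes, had 1498 CPM against 937, a log2 ratio of 0.68 that was -0.03 among nuclei with Kcnj16 and Slc8a3 and -0.13 among those with Zfp804a and Hmga2. Dclk1 had 206 CPM against 198, Kcnj16 27.8 against 26.5 and Peg3 965 against 934. Hmga2, a chromatin protein of fetal tissue and tumours, was 2.96-fold higher (2.54 to 3.44) and Zfp804a 2.61-fold lower (1.93 to 3.62). Hmga2 rested on few nuclei, since 23 of 137 dividing nuclei held all 200 UMIs and 5 of them held 66.5%. With at least 10 Pkhd1 UMIs Hmga2 was 1.80-fold higher and Zfp804a 1.54-fold lower.

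Markers of other cells were sparse. Of 137 dividing nuclei, 10 (7.30%) held at least 10 UMIs of 8 endothelial markers, 3 of 10 stellate and fibroblast markers and 2 of 8 macrophage markers, 15 nuclei in all. In comparison nuclei the endothelial share was 2.03%, at a median depth of 6979 UMIs against 11382 in dividing nuclei. The summed endothelial markers had 231 CPM in dividing, 115 in comparison nuclei and 408 in free RNA. The stellate and fibroblast markers had 125, 82.3 and 529. Of the 4 compared endothelial markers Emcn and Flt1 were at least 2-fold higher, at 2.96 and 2.55. Of the 4 compared stellate and fibroblast markers 2 were at least 2-fold higher as well. The median log2 ratios of the 2 lists were 0.98 and 1.01. The 8 T and B cell markers summed to 42.5 CPM in dividing nuclei, 31.2 in comparison nuclei and 44.2 in free RNA. The 5 mesothelial markers summed to 10.4, 10.7 and 25.2. In each of these 2 lists, 2 members were at 0 in dividing nuclei. Scrublet called 8 of 137 dividing nuclei (5.84%) and 145 of 3453 comparison nuclei (4.20%) as doublets. Without the 15 nuclei and the 123 like them in the comparison, 765 genes were at least 2-fold higher, 707 of them among the 757, and the median of the kinetochore list was 4.83.

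Across nuclei ordered by cycle UMIs, the S-phase genes were present before the threshold of the gate. The S-phase list of 35 genes had 447 CPM at 0 or 1 cycle UMI, 879 at 2 to 3 and 2152 at 4 to 5, then 3220, 4220, 4444 and 3293 in the dividing classes. The G2 and mitosis list of 40 genes had 76.8, 196 and 485 CPM below the threshold and 1700, 2499, 4531 and 6392 above it. Mcm6 was already at 118 CPM at 4 to 5 cycle UMIs and at 54.3 in the class of 40 or more. Cyclin E2 (Ccne2), which starts S phase, peaked at 122 CPM at 10 to 19. Neil3 and Lockd went on to 336 and 507 CPM in the class of 40 or more. Cyclin B1 had no UMI at 2 to 5 cycle UMIs and 47.7 CPM at 40 or more. The hepatocyte list went from 11418 to 4089 CPM between the end classes, and its values in between, such as 5893 at 4 to 5 and 9218 at 6 to 9, were not in order. Erbb4 was already at 91.9 CPM at 2 to 3 cycle UMIs. Median depth differed along this order, from 6979 UMIs at 0 or 1 to 17288 at 40 or more, and its part in these levels was not tested.

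**Figure D3:**
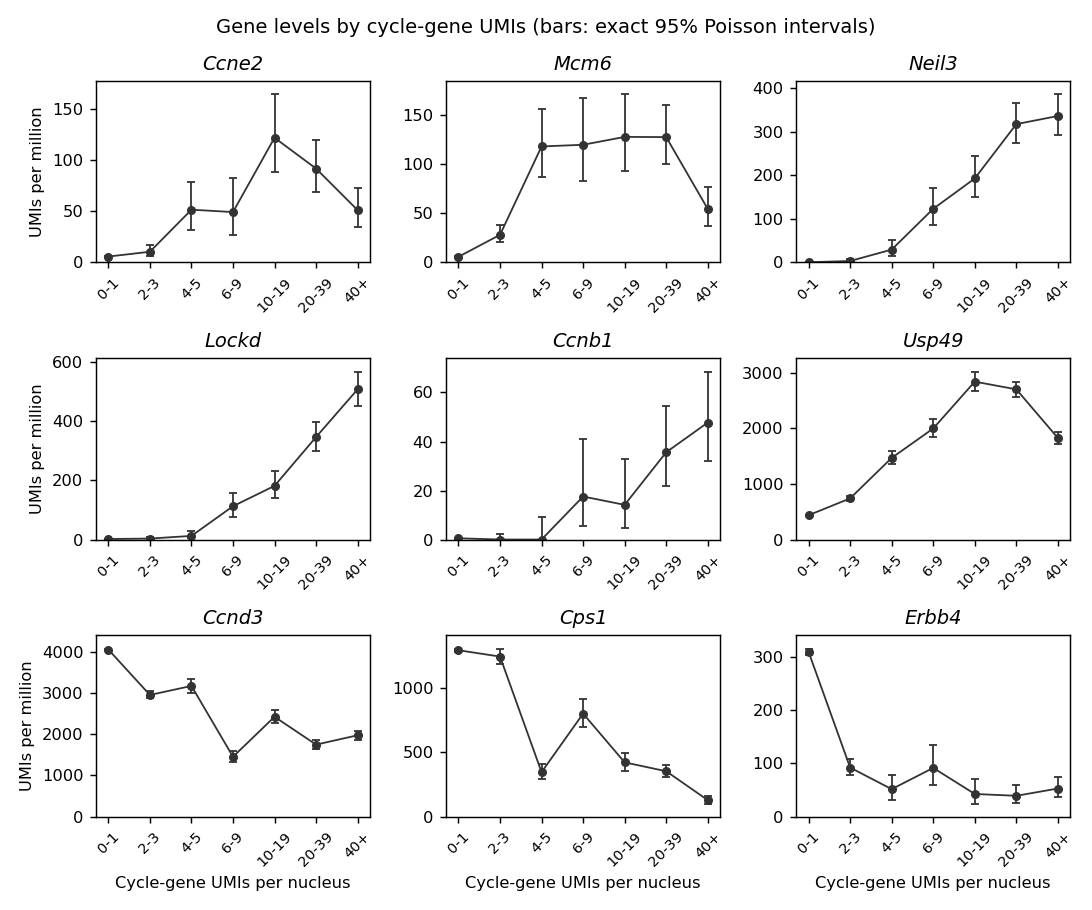
Summed level of 9 genes (CPM, each panel from 0) by cycle-gene UMIs of the nucleus, with exact 95% Poisson intervals as bars. Mcm6 stands at 118 by 4 to 5 cycle UMIs, whereas Lockd reaches 507 in the last class and Ccnd3 is highest, at 4049, in the first.

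Within the dividing nuclei, the balance of the phase lists ran over a wide range. The G2 and mitosis list made up 13.9% to 96.2% of the UMIs of both lists, with a median of 47.7%. Dividing nuclei had a median of 4538 CPM of the S-phase list and 4608 of the G2 and mitosis list, and comparison nuclei 385 and 0. At least 10 UMIs of the S-phase list were found in 129 of 137 dividing, 64 of 141 intermediate and 291 of 3453 comparison nuclei. For the G2 and mitosis list it was 131, 15 and 4. The S-phase and the G2 and mitosis levels had a Pearson r of -0.15 and a Spearman rho of -0.13 over the 137 nuclei, which share the total UMIs as denominator. No p is given, because nuclei of 1 pooled sample are not replicates.

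**Figure D4:**
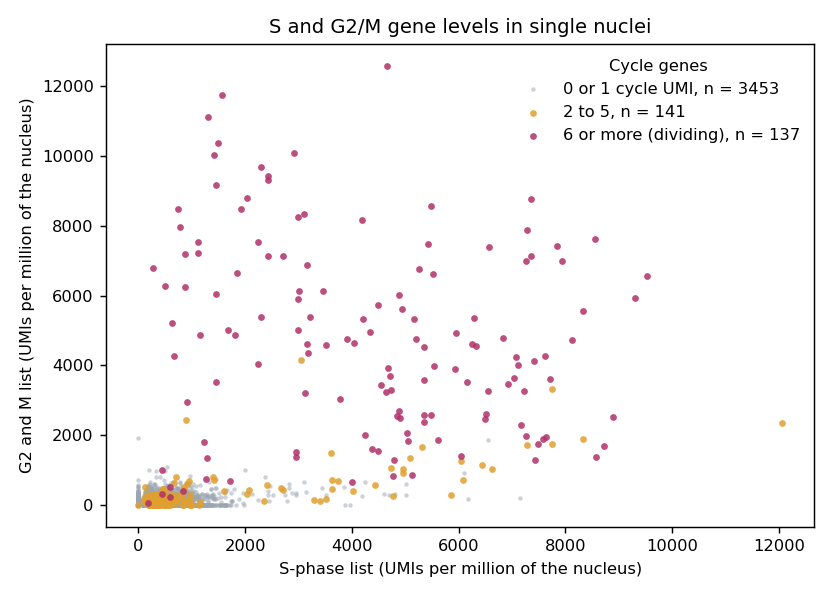
Each point is a nucleus, placed by its S-phase list (horizontal) and its G2 and mitosis list (vertical), both in CPM of the nucleus. Dividing nuclei (purple, n = 137) spread along both axes with medians of 4538 and 4608, and the comparison nuclei (grey, n = 3453) lie near the origin with medians of 385 and 0.

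Dividing nuclei were ordered by this balance and split into 46 early, 46 central and 45 late nuclei. The early nuclei had up to 37.5% of G2 and mitosis UMIs and the late nuclei at least 61.0%. These groups are ranges and not types: 27 nuclei lay within 5 percentage points of the early edge and 16 of the late one. Median depth was close, at 12058, 11214 and 11336 UMIs. With the genes of both phase lists left out, 5940 genes were compared between late and early nuclei. Of these, 201 (3.38%) were at least 2-fold higher in the late nuclei and 161 (2.71%) lower.

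Fork genes went with the early nuclei. Of 14 compared genes of the replication fork and polymerases that are in neither phase list, 10 were at least 2-fold lower in the late nuclei, with a median log2 ratio of -1.30. The ligase Lig1 had 80.7 CPM in early, 78.8 in central and 19.4 in late nuclei, and Rpa1, which coats single-stranded DNA, 165, 93.5 and 42.0. Mybl2 had 143, 112 and 22.6 CPM, 6.33-fold lower in late nuclei (3.58 to 12.1). Lig1 and Mybl2 were thus low in the late nuclei alone.

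Segregation genes went with the late nuclei. Of 7 compared cytokinesis genes 6, of 15 spindle genes 7 and of 25 kinetochore genes 8 were at least 2-fold higher in late nuclei. Cdc25b, the phosphatase that turns on Cdk1, had 4.94 CPM in early, 23.0 in central and 77.6 in late nuclei. Depdc1a had 23.1, 75.5 and 170 CPM. Pttg1, securin, had 21.4, 39.4 and 95.3 CPM. The levels of these genes were lowest in the early and highest in the late nuclei. Of the kinetochore list 4 and of the spindle list 1, Haus8, went the other way.

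Parpbp, counted in the fork repair list, was 5.89-fold higher in late nuclei, at 60.9, 182 and 359 CPM, while Brca1 was 2.94-fold lower, at 280, 309 and 95.3. Neil3 had 189, 346 and 271 CPM and was highest in the central nuclei. Lockd had 128, 341 and 520 CPM. Ccnd3 did not follow the balance, with 2101, 1521 and 2087 CPM. The hepatocyte list had a late over early median of -0.10 and the list of Pkhd1-high tumour genes one of -0.19, with 1 of 18 and none of 10 past 2-fold.

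Some genes outside the cycle came from single nuclei in this comparison. Col1a2, a fibroblast collagen gene, had 40 UMIs in late and 1 in early nuclei, and 34 of its 54 UMIs in all dividing nuclei came from 1 nucleus. Of 61 UMIs of Col5a2, 53 came from 1 nucleus. Without nuclei that held at least 10 UMIs of other cells' markers, 38 late and 41 early nuclei gave 177 higher and 215 lower genes of 4731.

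**Figure D5:**
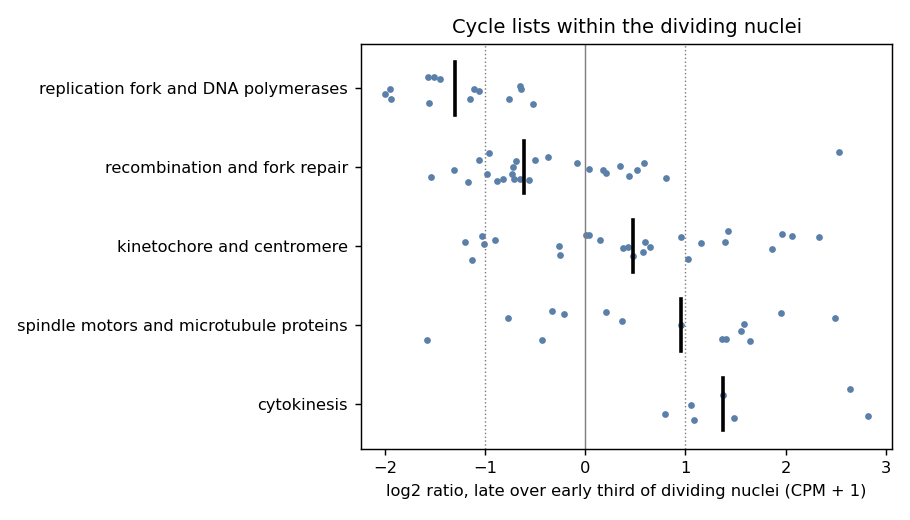
Log2 ratio of late over early dividing nuclei (after adding 1 CPM) for the compared genes of 5 cycle lists, as points, with the list median as a black bar and 2-fold as dotted lines. The median goes from -1.30 for the replication fork to 1.37 for cytokinesis.

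Dividing nuclei also differed among themselves in Pkhd1. The 44 nuclei with 3 to 9 Pkhd1 UMIs were at 556 CPM of Pkhd1 and the 93 with 10 or more at 2302 CPM, values set by the split. The bile duct keratins Krt7 and Krt19 were too sparse to compare, with 0 and 3 UMIs in the former and 4 and 21 UMIs in the latter. The bile duct factor Onecut1 had 233 CPM in the former and 139 in the latter, and Krt18 118 and 105. Dclk1, a doublecortin-like kinase, had 24.3 CPM in the former and 273 in the latter, and Kcnj16 had 0 and 51 UMIs, the latter at 38.0 CPM. Slc8a3 had 99.4 and 343 CPM and Spp1, osteopontin, 58.8 and 177. In the other direction, Cps1 had 777 and 209 CPM and Hmga2 243 and 59.6, with 34.7% and 47.5% of the former's UMIs in 1 nucleus. The glycolytic kinase Hk2 had 310 and 143 CPM, with 30.7% of the former in 1 nucleus. In comparison nuclei, Dclk1 had 38.5 and 321 CPM and Slc8a3 54.8 and 379, the same direction as in the dividing nuclei, whereas Hk2 had 78.7 and 198 CPM, the opposite direction. Hmga2 was nearly level there, at 41.4 and 33.1 CPM.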

How the data were processed

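The deposited matrices hold raw UMI counts per gene and barcode, from nuclear RNA in 10x 3′ libraries. Cell Ranger 5.0 and the mm10 build were used per the submitters' processing notes. Version 5.0.0 made the filtered counts and version 4 the unfiltered ones, per the file headers. The sources used here do not say how the 2 samples were combined or whether counting used strand. Members and lists were chosen with earlier results of these data known.

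Counts were summed over nuclei and scaled to 1000000 UMIs (CPM). Folds carry exact 95% intervals for a ratio of Poisson counts, and shares carry exact Clopper-Pearson 95% intervals. Both cover counting error only. Log2 ratios used a pseudocount of 1 CPM. Compared genes had a mean CPM that corresponds to at least 20 UMIs in the smaller group, and a gene was counted from 2-fold. The script was tested on simulated counts. From each of the 43 lists, up to 4 highest and 4 lowest genes could be named, with those against the list's direction. From genes in no list it was the 12 highest and 12 lowest with an interval beyond 2-fold and no clone name. Some genes that this rule names are not reported here. Genes that differ between late and early nuclei were named after their values were seen. Free RNA was taken from uncalled barcodes with 500 to under 850 UMIs. Doublets were called with Scrublet (scanpy 1.11.5) among 9632 barcodes with at least 2000 UMIs and stayed in, except in 1 alternative. Promoters came from RefSeq (GRCm38.p6), and gene positions from GENCODE of the same build. Python 3.11.15, numpy 2.4.6, scipy 1.17.1 and pandas 2.3.3 were used.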

Additional observations from a re-analysis of the deposited data

How the results depend on the processing

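Under 16 other settings, 523 list medians were recomputed, of which 460 stayed within the counting spread and 50 had the other sign. Of the 21 lists with a median under 2-fold, 15 changed sign under at least 1 setting. Of the 12 lists with a larger median, 1 did, the cyclin and kinase list, with a median log2 ratio of -0.085 among the 13 dividing and 128 comparison nuclei with Zfp804a and Hmga2 of at least 3 UMIs. Few genes could be compared there, and the cause was not tested. Of 640 recomputed values of 40 named genes, 535 stayed within the counting interval and 3 had the other sign, all of them of Ppargc1a and Col4a6, which were under 2-fold. The share of dividing nuclei was 4.64% with at least 5000 UMIs and 2.92% with at least 10 cycle UMIs. The number of genes at least 2-fold higher was 462 with 50 expected UMIs, 1217 with 5, and 78 for the Zfp804a and Hmga2 nuclei. The number at least 2-fold lower was 1164 with 5 expected UMIs, 286 with Pkhd1 of at least 10 UMIs, 195 with Kcnj16 and Slc8a3 of at least 3 UMIs, and 42 for the Zfp804a and Hmga2 nuclei. The leaving out of nuclei with markers of other cell types was chosen after seeing the data. No paired analysis was possible because no barcode names its sample. Samples could not be left out in turn for that reason either. Genes under the count minimum were not compared, though many of them had UMIs, and 2-fold differences in them were not assessed at this depth.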

Other observations

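Around Ccnd3 on chromosome 17 the levels differed by gene, and these genes were chosen after their values were seen. Usp49, a deubiquitinase of histone H2B, starts at 47630690 and ends at 47686738 (mm10) and had 2326 CPM in dividing, 892 in intermediate and 437 in comparison nuclei, 5.33-fold higher (5.15 to 5.51), with free RNA at 150 CPM. It was seen in 136 of 137 dividing nuclei, and the median nucleus had 2238 CPM against 417. Quartiles were 999 and 3902 CPM in dividing and 128 and 766 CPM in comparison nuclei, so the lower quartile of the dividing nuclei lay above the upper quartile of the others. Usp49 had 3388 CPM in the early dividing nuclei, 2588 in the central and 1028 in the late ones. With at least 10 Pkhd1 UMIs it was 4.22-fold higher.

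The neighbours of Usp49 and Ccnd3 were expressed as well. Nfya, a subunit of the CCAAT-binding factor NF-Y, had 1623 CPM in dividing and 552 in comparison nuclei, 2.94-fold higher (2.83 to 3.06), and Oard1 beside it 523 against 221. Nfya and Oard1 lie farther off than the rest, starting at 48386885 and 48410014. Tfeb, a lysosomal transcription factor, had 2023 CPM against 1215, Foxp4 2300 against 1574, Med20 812 against 468 and Mrps10 1390 against 750. Mdfi had 33.8 CPM against 66.5 and Taf8, which lies next to Ccnd3, 497 against 354. Ccnd3 and Mdfi were thus lower and the other genes named here higher in dividing nuclei. Of other neighbours, Bysl, which overlaps Ccnd3, was 2.03-fold higher, AI661453 had a fold of 1.06 and 1700001C19Rik one of 0.762. With at least 10 Pkhd1 UMIs, Foxp4 and Taf8 had folds of 1.05 and 0.999. There, Tfeb, Mrps10 and Med20 had folds of 1.22, 1.32 and 1.33, and Nfya and Oard1 2.14 and 1.84.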
